A study of Bos taurus with 4 samples.

Results

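The genes described here take part in the use of fatty acids and glucose as fuel by skeletal muscle. They are the pyruvate dehydrogenase kinases PDK4 and PDK2 and the mitochondrial carriers UCP3 and UCP2. The others are the mitochondrial fatty acid enzymes CPT1B, CPT2, ACADM, ACADVL, HADHA and DECR1. All 10 genes were chosen by symbol, with their ratios in these arrays already known. Each gene was represented by its brightest probe whose RefSeq accession carried that symbol. Only mRNA was measured, not fuel use. A kept probe was found for 9 of the 10 genes, among 6376 named genes with a kept probe. No probe was matched to UCP2, which was not analysed here. The 9 genes comprised 3 regulators (PDK4, PDK2 and UCP3) and 6 enzymes. All 9 were detected above background for both breeds on every array, and HADHA had a second kept probe. Each probe was spotted in duplicate, and the log2 ratios of duplicate spots differed by 0.0026 to 0.135.

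Muscle mitochondria take acetyl-CoA from pyruvate or from fatty acids. Pyruvate dehydrogenase kinases phosphorylate and switch off the pyruvate dehydrogenase complex, which spares glucose, and PDK4 is the kinase known to be raised in muscle by fasting, glucocorticoids and fatty acids. Fatty acids enter the mitochondrion through the carnitine gate (CPT1B and CPT2) and are shortened by beta-oxidation, and UCP3 is a muscle carrier of the inner membrane whose mRNA is known to follow the supply of fatty acids.

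The RNA came from m. semitendinosus, a hind-limb muscle. The bulls were 15 months old and belonged to a beef breed, Limousin (LIM), or to a dairy breed, Holstein-Friesian (HF), which served as the control. Each of 4 two-colour arrays was hybridised with Cy5-labelled RNA of a LIM bull and Cy3-labelled RNA of an HF bull, so 4 bulls of each breed were compared. No treatment or genotype was given in the labels, and connective and fat tissue had been trimmed from the muscle pieces by dissection, but their cells were not separated, so that fewer cells of a type and less RNA per cell cannot be told apart. LIM was always in Cy5 and HF always in Cy3, and breed and dye therefore cannot be told apart for any single gene.

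Of 42990 bovine spots per array, those clearly brighter than background numbered 32513 to 33527 for LIM and 27102 to 28769 for HF, and no spot was saturated. All arrays lay on 1 slide with 1 scan time. Of 12 muscle fibre markers 8 were measured, each of them detected for both breeds on every array, and their summed signal ranged from 804192 to 867812 in LIM and from 722575 to 961821 in HF. Precision is limited by there being 4 arrays. Values are log2 ratios of LIM over HF after loess normalization within each array, given as the mean ± moderated standard error over 4 arrays, and a positive value means a higher signal in LIM. The signs follow the dyes in the labels, and they are the opposite of the study's for UCP3, the only member whose direction it lists, and for the other genes named here that it lists with a direction (DDIT4, TRIM63, SIRT1, SLC25A4, PRKAA1, CFD, MYC, KLF4 and RRAD). LIM and HF below therefore stand for the channels so labelled. An exchange of the breeds between the channels, which these arrays alone cannot show, would turn every sign and swap the counts of higher and lower. Sizes, distances and counts without a direction would stay as they are. TRIM63 and SIRT1 did not pass the test and had ratios of -1.07 ± 0.23 and -0.30 ± 0.08. The study also measured SIRT1 by qPCR, which gave it as higher in LIM than in HF, opposite to the sign here. Its qPCR and Western blot put myostatin lower in LIM. Neither myostatin nor its other qPCR genes (FST, SMAD2, HSPA8, GSK3B and TGFB2) are set beside these arrays here. The study reports neither qPCR nor Western blot for the members. The members' own ratios are given as a description, with no p, because they had served to choose the genes.

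PDK4 showed the widest breed difference of the genes chosen. Its log2 ratio was -4.16, -4.16, -2.18 and -1.71 on arrays 1 to 4, a mean of -3.05 ± 0.49, which is an 8.28-fold higher signal in the channel labelled HF. It was lower in the channel labelled LIM on every array, and the gap on arrays 1 and 2 was wider than on arrays 3 and 4. PDK4 had rank 4 from the bottom among the 6376 named genes.

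The signals of the separate channels give the spread of PDK4 by bull. In LIM the normalised log2 signal of PDK4 was 9.72, 8.69, 8.88 and 10.27 on arrays 1 to 4. In HF it was 13.88, 12.85, 11.06 and 11.97. The highest LIM bull lay below the lowest HF bull, so the breeds did not overlap, and the bulls of each breed differed widely among themselves. The SD over bulls was 0.735 in LIM and 1.21 in HF, at percentiles 99.5 and 99.7 of the SDs of all named genes. Before normalization the median spot brightness of PDK4 was 1205.5, 644, 852.5 and 2125 in the red LIM channel, and 10517.5, 4465, 1065 and 2578.5 in the green HF channel. The probe was brighter in green than in red on every array. Where red read 852.5 and 2125, green read 1065 and 2578.5. Most of the ratios of -2.18 and -1.71 on those arrays came from background correction and normalization. For whole arrays red was the brighter dye, with a median spot brightness of 134 to 155 against 59 to 75.5 in green. That median says nothing of the dye bias of this probe, which was not tested.

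PDK2, the kinase present in most tissues, had ratios close to 0. They were -0.30, -0.07, -0.24 and -0.28, with a mean of -0.22 ± 0.07. The sign was the same on all 4 arrays after loess, but it turned to 0.43 with median centring and to 0.18 when the kept probes alone were centred. Its signals overlapped between the breeds, from 12.15 to 12.52 in LIM and from 12.22 to 12.76 in HF. The PDK2 ratio exceeded the PDK4 ratio by 3.86, 4.09, 1.94 and 1.43 on the 4 arrays, a mean of 2.83 ± 1.34 (SD, n = 4).

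UCP3 lay at the other end of the distribution. Its log2 ratio was 1.85, 1.83, 1.61 and 1.40, a mean of 1.67 ± 0.10, which is a 3.19-fold higher signal in the channel labelled LIM. It was higher there on every array, with a far narrower spread over arrays (SD 0.208) than PDK4 (SD 1.29). The normalised log2 signal was 14.25, 14.64, 14.13 and 14.23 in LIM and 12.40, 12.81, 12.53 and 12.83 in HF. The breeds did not overlap, and the bulls within a breed lay within 1 log2 unit of each other. Before normalization the median spot brightness of UCP3 was 30223.5, 42729.8, 35491 and 33865.5 in red and 4052, 4135.5, 2608 and 4688 in green. UCP3 had rank 5 from the top among the 6376 named genes. Its neighbour UCP2 in the RefSeq gene order was the member without a matched probe, so the carriers could not be compared.

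**Figure D1:**
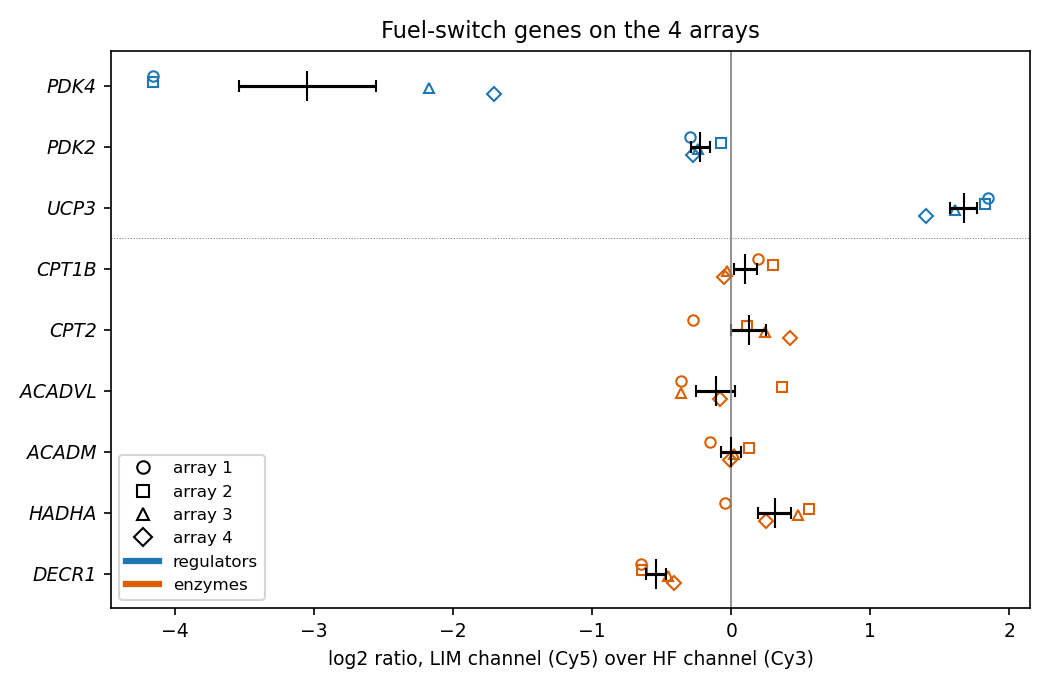
Log2 ratio of LIM over HF for each of the 9 genes measured, with 1 point per array and a bar at the mean of 4 arrays. The 4 points of PDK4 lie between -4.16 and -1.71 and those of UCP3 between 1.40 and 1.85, while every point of PDK2 and of the 6 enzymes lies between -0.65 and 0.56.

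**Figure D2:**
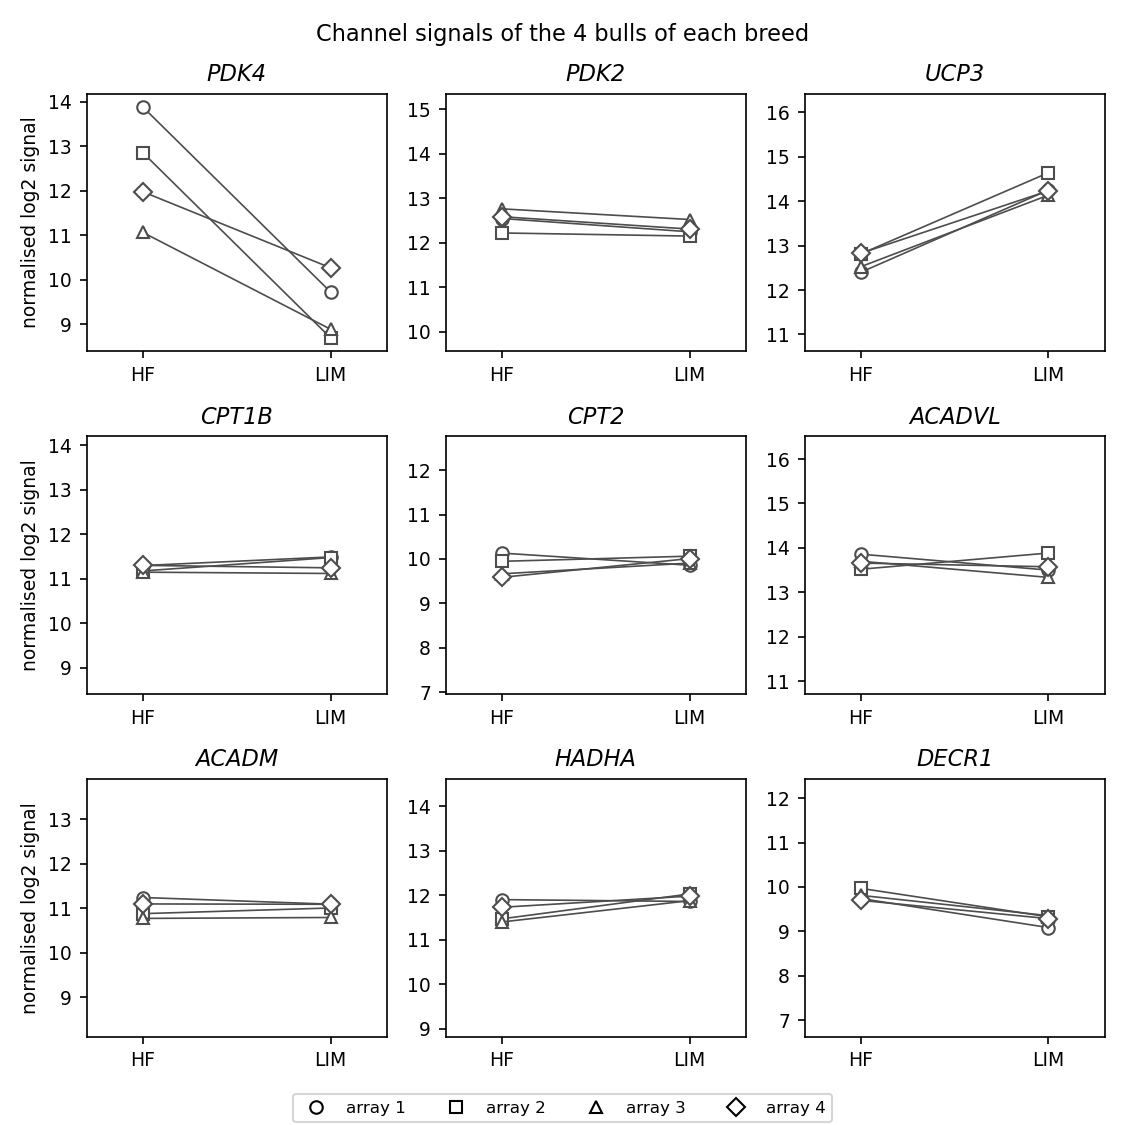
Normalised log2 signal of each gene in the LIM and the HF channel, with 1 point per bull and lines joining the bulls of an array. PDK4, UCP3 and DECR1 show no overlap of the breeds and the other 6 genes do, and the heights of different probes are not comparable with each other.

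The carnitine gate showed no breed difference of that size. CPT1B, the muscle form of carnitine palmitoyltransferase 1 at which entry of long-chain fatty acids is controlled, had ratios of 0.19, 0.30, -0.03 and -0.05, with a mean of 0.10 ± 0.09. It was higher in LIM on arrays 1 and 2 and close to 0 on arrays 3 and 4. Its signals were 11.49, 11.48, 11.12 and 11.24 in LIM and 11.30, 11.18, 11.15 and 11.30 in HF, and the breeds overlapped. CPT2, the inner-membrane partner that remakes the acyl-CoA, had ratios of -0.27, 0.12, 0.24 and 0.42, with a mean of 0.13 ± 0.12. Array 1 went the other way from the other 3 arrays, and the signals of 9.86 to 10.06 in LIM fell within those of 9.59 to 10.13 in HF. The UCP3 ratio exceeded the CPT1B ratio by 1.65, 1.52, 1.64 and 1.46, a mean of 1.57 ± 0.09 (SD, n = 4), so the distance between these genes hardly varied over arrays.

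After loess the enzymes of the beta-oxidation spiral also stayed near 0. ACADVL, which starts the breakdown of very long acyl chains, had ratios of -0.36, 0.36, -0.36 and -0.08, a mean of -0.11 ± 0.14. ACADM, the medium-chain acyl-CoA dehydrogenase, had ratios of -0.15, 0.13, 0.02 and -0.01, a mean of -0.0026 ± 0.07. Neither kept a sign over the arrays, their signals overlapped between breeds, and with median centring their means were 0.56 for ACADVL and 0.61 for ACADM. HADHA, the alpha subunit of the trifunctional protein that carries out the later steps on long chains, had ratios of -0.04, 0.56, 0.48 and 0.25, a mean of 0.31 ± 0.12. A dimmer HADHA probe gave -0.10, 0.49, 0.36 and 0.18, a mean of 0.23, so the probes of this gene ordered the arrays alike. HADHA signals were 11.86 to 12.03 in LIM and 11.40 to 11.90 in HF, and overlapped because of array 1.

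DECR1 was the enzyme with the same sign on all 4 arrays. It encodes the mitochondrial 2,4-dienoyl-CoA reductase, an auxiliary enzyme that is needed to break down polyunsaturated fatty acids. Its ratios were -0.65, -0.64, -0.46 and -0.41, with a mean of -0.54 ± 0.07, a 1.45-fold higher signal in the channel labelled HF that was absent with median centring, where the mean was 0.0069. The signals were 9.09, 9.33, 9.35 and 9.29 in LIM and 9.74, 9.97, 9.81 and 9.70 in HF, and the breeds did not overlap. The HADHA ratio exceeded the DECR1 ratio on every array, by 0.61, 1.20, 0.94 and 0.66, a mean of 0.85 ± 0.27 (SD, n = 4).

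Set side by side, the regulators spanned a far wider range of log2 ratios than the enzymes. That width is the distance between PDK4 and UCP3, which were chosen with their ratios known, so it is no trait of regulators. PDK2, the other regulator measured, had a mean of -0.22, inside the enzymes' -0.54 to 0.31. The lowest and the highest of the 3 regulators lay 6.0, 5.99, 3.79 and 3.11 apart on arrays 1 to 4, and those of the 6 enzymes 0.85, 1.20, 0.94 and 0.83. In the means over arrays, PDK4 and UCP3 were 4.72 ± 1.5 (SD, n = 4) apart and the enzymes spanned 0.85. The median of the enzymes was -0.21, 0.21, -0.00 and -0.03 on the 4 arrays, with no common sign. The median absolute mean ratio was 0.12 for the enzymes and 0.15 for all named genes after loess. With median centring the enzymes' median was 0.65 where that of all kept probes was 0.25, and with the kept probes alone centred it was 0.39 where theirs was -0.0028. PDK4 and UCP3 moved in opposite directions, and their distance was 4.72 to 4.91 under the other processing settings and 4.30 to 5.26 when an array was left out.

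**Figure D3:**
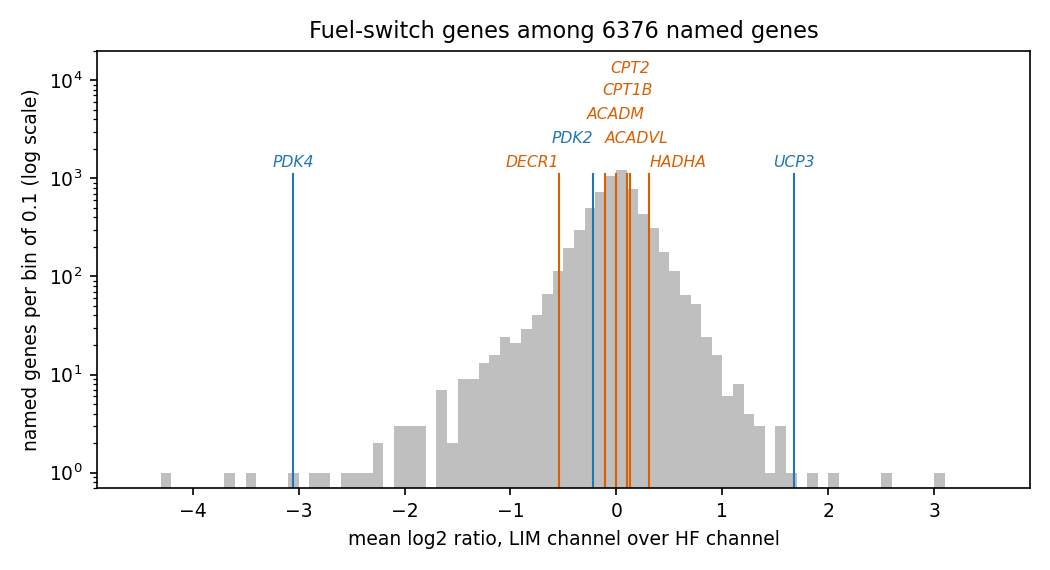
Histogram of the mean log2 ratio of LIM over HF for all 6376 named genes, with the number of genes on a log axis and the 9 members marked. PDK4 at -3.05 and UCP3 at 1.67 lie in the tails, and PDK2 and the enzymes lie between -0.54 and 0.31, where most genes are.

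The fit over all 15855 kept probes passed 868 at an adjusted p under 0.05 (limma, Benjamini-Hochberg), 5.47% of them, 470 higher and 398 lower in LIM. In the same fit 4326 of the 15855 probes had an unadjusted p under 0.05, so a list count at that threshold is not to be set against 5%. Among named genes the share was 5.93%, with 2.78% higher and 3.15% lower. Of the 9 members 3 passed, UCP3 higher and PDK4 and DECR1 lower, a count that the choice of the genes by these ratios had fixed and from which nothing is read. The breeds' signals did not overlap in 3 of 9 members against 17.1% of named genes, and 4 of 9 members against 36.2% had the same sign on all arrays. The calls rested on all 4 arrays. Without array 1, 2 or 4 limma passed 0 probes, while 3911, 3300 and 3184 probes had an unadjusted p under 0.05, and without array 3 it passed 51 probes, 1 member among them. The methods' t-test passed 1479 probes at its threshold, the same 3 members among them, and 1 probe after Benjamini-Hochberg adjustment.

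Loess gave a median ratio of 0.02 over kept probes, whereas median centring of each array over all spots gave 0.25. Under median centring the ratios of all members were higher, with -2.47 for PDK4, 2.34 for UCP3, 0.73 for CPT1B, 0.69 for CPT2 and 0.95 for HADHA, and the enzymes' median was 0.65. PDK4 kept a negative and UCP3 a positive ratio in all 18 alternatives, from -3.50 to -2.47 and from 1.61 to 2.34.

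**Figure D4:**
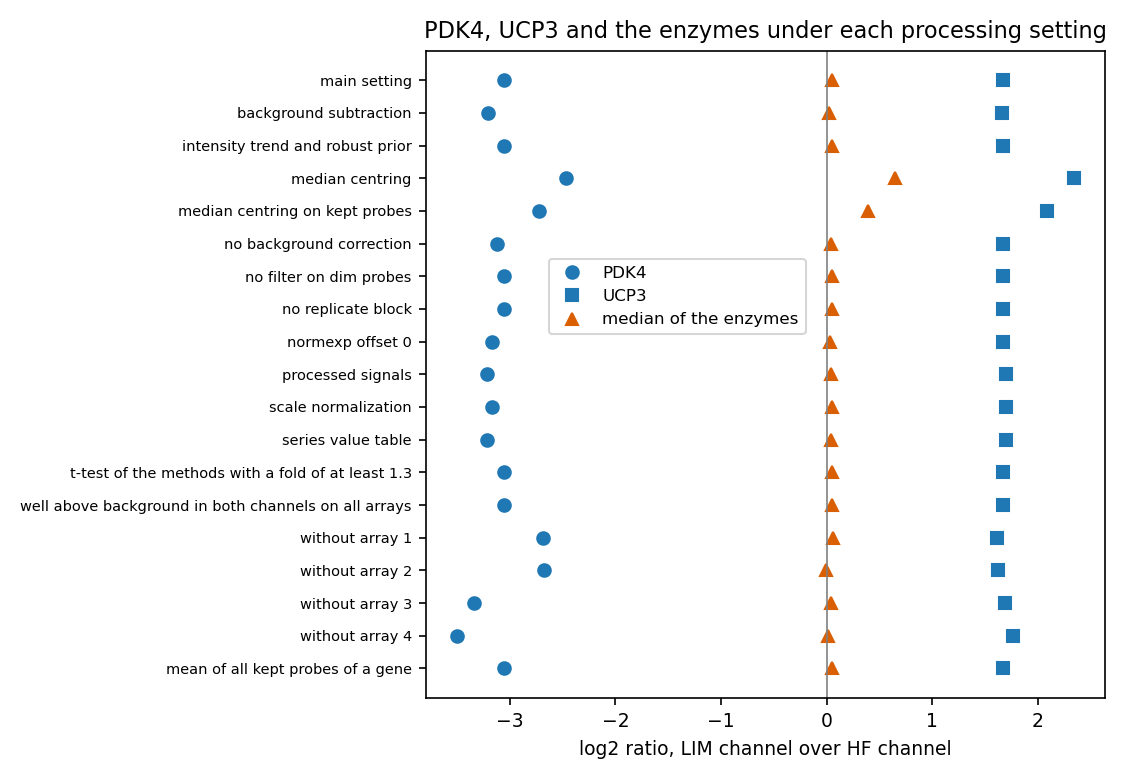
Log2 ratio of PDK4, UCP3 and the median of the 6 enzymes, with 1 row per processing setting. PDK4 stays between -3.50 and -2.47 and UCP3 between 1.61 and 2.34, and the enzymes' median leaves the neighbourhood of 0 with median centring (0.65) and where the kept probes alone were centred (0.39).

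Of 135 further genes of fuel use, in 7 lists, 67 were measured, and 3 passed the test as higher in LIM, 4 as lower and 60 not at all. The share past the test was 10.4%, beside 5.93% of all named genes, and the median ratio was -0.03 beside 0.00 for all named genes. The lists were chosen with earlier results of these data known, so nothing is read from that share. For 5 of the 67 genes the HF signal was not well above background on any array. Without array 1, 2 or 4 none of the 67 passed limma's test, with 26, 24 and 25 at an unadjusted p under 0.05, and without array 3 MT2A and NR4A1 passed.

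Among other beta-oxidation enzymes 13 of 23 were measured, 0 passed as higher and 1 as lower, with a median ratio of -0.16. That gene was ECI2, an enoyl-CoA isomerase that like DECR1 handles unsaturated acyl chains. Its ratios were -0.80, -0.48, -0.84 and -0.49, with a mean of -0.65 ± 0.09 (limma adjusted p = 0.032). With median centring it was -0.14 and with the kept probes alone centred -0.40, and it passed with neither.

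Among genes of fatty acid uptake, activation and carnitine transport 13 of 23 were measured, 1 passed as higher and 0 as lower, with a median ratio of 0.08. The ratios ran from -1.16 to 0.84, and 8 of the 13 were positive, so the genes named here show only the positive side. ACOT2, the mitochondrial acyl-CoA thioesterase, had ratios of 1.05, 1.03, 0.57 and 0.70, a mean of 0.84 ± 0.11 (limma adjusted p = 0.027). Named after their values were seen, the carnitine-acylcarnitine carrier SLC25A20 at 0.53 ± 0.12 and the carnitine acetyltransferase CRAT at 0.43 ± 0.09 had a positive ratio on all 4 arrays and did not pass, with limma adjusted p = 0.069 and 0.060. Both passed with either centring and with the methods' t-test, and SLC25A20 also without the array as a block.

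On the pyruvate side, 7 of 14 further genes were measured, with a median ratio of 0.01, and 0 passed limma's test. At an unadjusted p under 0.05, where 4326 of 15855 kept probes lay, there were 2. These were the lactate dehydrogenase subunits. LDHA, the subunit typical of glycolytic muscle, had a ratio of 0.66 ± 0.16 (limma adjusted p = 0.079), and LDHB, the subunit typical of oxidative muscle, had -1.24 ± 0.32 (limma adjusted p = 0.085). Both kept their sign on all 4 arrays, LDHA from 0.24 to 1.20 and LDHB from -2.32 to -0.51. LDHA passed with median centring at 1.39 (limma adjusted p = 0.031) and with the kept probes alone centred at 1.13 (limma adjusted p = 0.020), and LDHB passed with an offset of 0 (limma adjusted p = 0.048). PDK4, a kinase that acts on pyruvate dehydrogenase, had a mean of -3.05, but it was chosen with its ratio known. Named after their values were seen, the pyruvate dehydrogenase subunit PDHA1 and the kinase PDK3 had mean ratios of 0.30 and -0.13. The pyruvate carrier genes MPC1 and MPC2, named in the same way, had 0.01 and 0.01.

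The AMP-activated kinase controls the carnitine gate through malonyl-CoA, and 2 of 11 genes of that control were measured. PRKAA1, a catalytic subunit, had 0.19 ± 0.06 (limma adjusted p = 0.13), and PRKAG1, a regulatory subunit, had -0.23 ± 0.10 (limma adjusted p = 0.19). Neither passed, and 1 of them had an unadjusted p under 0.05, beside 4326 of 15855 kept probes.

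Among transcription factors and coactivators of fatty acid genes 13 of 29 were measured, 0 passed as higher and 1 as lower, with a median ratio of -0.14. The ratios ran from -2.22 to 0.63. NR4A2, named after its values were seen, did not pass, but it passed with background subtraction, median centring and other settings. NR4A1, an orphan nuclear receptor that is also an early response gene, had ratios of -1.34, -1.14, -0.48 and -1.05, a mean of -1.0 ± 0.15 (limma adjusted p = 0.035). It did not pass with median centring, at -0.35, with the kept probes alone centred, at -0.61, with scale normalization or without the array as a block. PPARGC1A, the coactivator of mitochondrial genes and named after its values were seen, split the arrays, with -1.40 and -1.27 on arrays 1 and 3 and 0.01 and 0.06 on arrays 2 and 4.

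A list of genes known to be raised together with PDK4, in fasting or by glucocorticoids or PPAR, had 12 of 22 members measured, of which 1 passed as higher, 2 as lower and 9 not at all, with a median ratio of 0.03. Its members went in both directions. MT2A, a metallothionein, had ratios of 3.51, 2.81, 2.52 and 3.45 and a mean of 3.07 ± 0.19 (limma adjusted p = 0.018). DDIT4, a stress-induced inhibitor of mTORC1, had a mean of -1.88 ± 0.21 (limma adjusted p = 0.024), and GADD45A, a growth arrest gene, had -1.09 ± 0.20 (limma adjusted p = 0.047). GADD45A did not pass with median centring, at -0.46 (limma adjusted p = 0.091), or without the filter on dim probes (limma adjusted p = 0.067). The glucocorticoid target FKBP5 and the PPAR target ANGPTL4, named after their values were seen, had means of 0.01 ± 0.35 and 1.16 ± 0.51 and changed sign between arrays.

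Of 13 other mitochondrial carriers 7 were measured, with 1 higher in LIM, 0 lower and a median ratio of -0.06. The ratios ran from -1.41 to 0.55. SLC25A25, named after its values were seen, did not pass, but it passed with background subtraction, the methods' t-test and other settings. SLC25A4, the ADP/ATP carrier of muscle, had ratios of 0.81, 0.50, 0.28 and 0.64, a mean of 0.55 ± 0.10 (limma adjusted p = 0.047). It did not pass with background subtraction, an offset of 0, processed signals, the series value table, scale normalization or no filter on dim probes, where limma's adjusted p ran from 0.055 to 0.076.

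**Figure D5:**
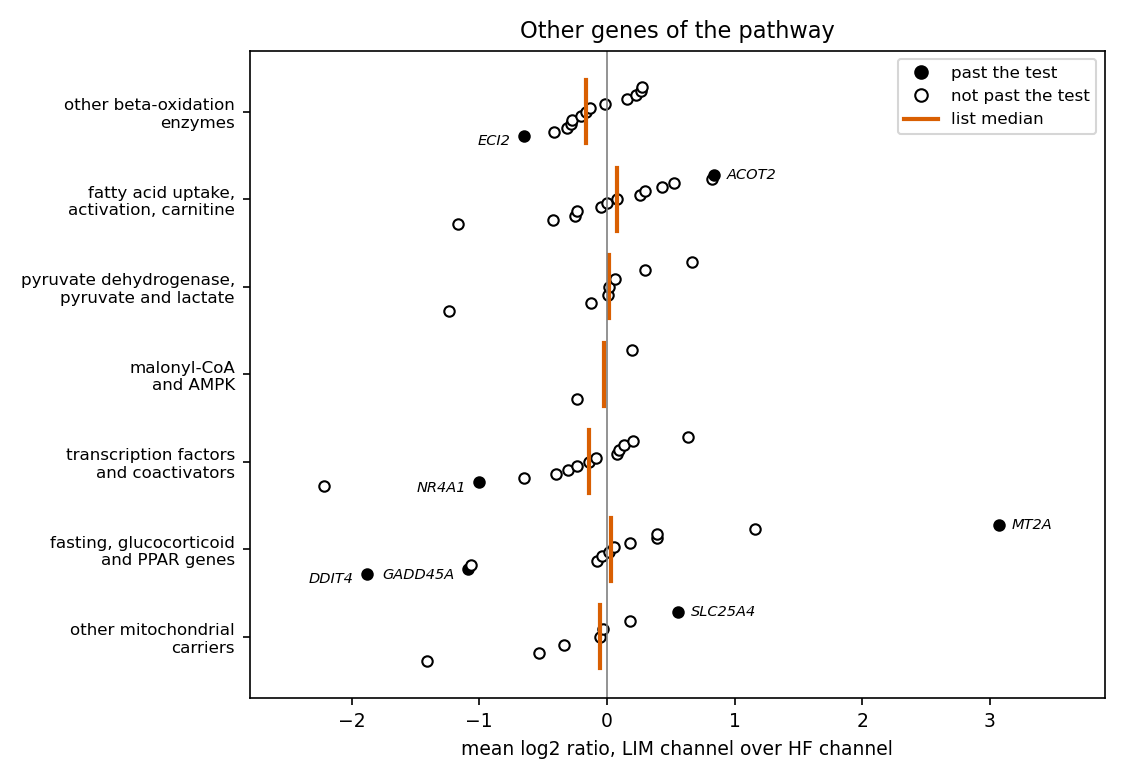
Mean log2 ratio of LIM over HF for each measured gene of the 7 lists, with 1 point per gene, filled where limma's adjusted p was under 0.05, and an orange bar at the list's median. The list medians lie between -0.16 and 0.08, and the 7 filled points are MT2A, ACOT2 and SLC25A4 on the right and ECI2, NR4A1, GADD45A and DDIT4 on the left.

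The genes with log2 ratios closest to those of PDK4 were sought by the root mean square difference of the 4 log2 ratios, over 6367 other named genes. Among the 5 nearest were MYC at 0.655, GADD45G at 0.753, KLF4 at 1.13 and RRAD at 1.26, beside a median of 3.26 over all genes compared. MYC had ratios of -3.29, -3.30, -2.45 and -2.10, and like PDK4 it was lower on arrays 1 and 2 than on arrays 3 and 4. MYC and KLF4 encode transcription factors of the early response, GADD45G is a stress-induced growth arrest gene and RRAD is a small GTPase of muscle. The nearest genes to UCP3 were SMTNL2 at 0.327, NDRG2 at 0.381, SPSB2 at 0.391, ABCF2 at 0.547 and HOXA4 at 0.575. CPT1B had 39 genes within 0.1, the nearest being BLNK at 0.032, DIABLO at 0.043, SYTL2 at 0.043, GOT2 at 0.054 and ABRAXAS2 at 0.056, whereas PDK4 and UCP3 had 0. The median over all genes compared was 0.325 for CPT1B and 1.69 for UCP3. The measure depends on the size of the ratios, so a gene in the tails has few near genes and a large median. Shared regulation was not tested. These lists changed with the processing: over 12 alternatives 3 to 5 of the nearest genes were shared for PDK4, 1 to 5 for UCP3 and 2 to 5 for CPT1B, and for UCP3 the 1 came with processed signals and the series value table.

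Markers of other cells and states were read beside the members. All measured immediate-early genes, which cells switch on rapidly after a stimulus, had a negative mean, as PDK4 did. Of 12 such genes 8 were measured and 0 passed as higher, 5 as lower (ATF3, FOS, MYC, JUN and ZFP36) and 3 not at all. Among all named genes 5.93% passed, 3.15% as lower. Their median ratio was -2.14, -1.66, -1.64 and -2.03 on arrays 1 to 4, and their summed signal was 16424 to 34622 in LIM and 23050 to 84387 in HF. Their part in the PDK4 difference was not tested.

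The counts of markers at an unadjusted p under 0.05 stand beside 4326 of all 15855 kept probes. Of 9 macrophage and leukocyte markers 6 were measured and 0 passed limma's test, with 3 at an unadjusted p under 0.05. All 6 had a negative mean, with a median of -0.51. Their summed signal was 1520 to 2118 in LIM and 1788 to 4065 in HF. Of 8 adipocyte markers 6 were measured, CFD was lower and 0 were higher, 3 had an unadjusted p under 0.05, and 5 of 6 had a positive mean, with a median of 0.34. Their summed signals were 4180 to 4805 in LIM and 3905 to 6309 in HF. Of 6 endothelial markers 3 and of 6 erythrocyte markers 2 were measured, with 0 past limma's test and 0 at an unadjusted p under 0.05. The part of these cells in the members' values was not tested. Of the 8 measured muscle fibre markers 1 passed as higher, 0 as lower and 7 not at all, and 4 had a positive mean, with a median of 0.02. The highest was MB, the oxygen store myoglobin, at 1.02 ± 0.15 (limma adjusted p = 0.033). The lowest was the slow-fibre myosin MYH7 at -1.06 ± 0.32 (limma adjusted p = 0.12). MYH7 had ratios of -2.16, -0.37, -1.24 and -0.45, and the part of fibre type in the members' values was not tested.

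Measured neighbours of PDK4 and DECR1 in the RefSeq order had ratios closer to 0 than these members. DYNC1I1, beside PDK4, had -0.35 ± 0.12 and did not pass, and NBN, beside DECR1, had 0.06 ± 0.11. HADHB, which lies beside HADHA and encodes the other subunit of the trifunctional protein, was not analysed here.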

How the data were processed

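Per the labels, each of 4 Agilent two-colour bovine arrays held Cy5-labelled RNA of a LIM bull and Cy3-labelled RNA of an HF bull, and the labels number the arrays as biological replicates. The study's Hereford arrays were not analysed here. The authors quantified the spots with Feature Extraction 10.7.3.1. The deposited intensity values are median spot and local background brightness per dye, not normalized, with processed signals beside them. The deposited log10 ratios are processed red over green, and the series value table holds the same ratios (largest difference 0, column medians 0, 0, 0 and 0), which settles its scale and direction. Between 5507 and 6743 ratios per array are exactly 0.

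Background was corrected with normexp (offset 50), which shrinks the ratios of dim probes, on the median foreground because the files hold no mean. Ratios were normalized by loess with control spots at weight 0, spots flagged non-uniform (5 to 10 per array) were dropped, and spots of a probe were averaged. Of 21475 probes 15855 exceeded background clearly (the scanner software's flag) in the same channel on 3 or more arrays and were kept. Mean log2 ratios were tested against 0, two-sided, with limma 3.58.1 in R 4.3.3 and Benjamini-Hochberg adjustment over all kept probes (threshold 0.05), a fit also tested on simulated data. Signals per channel were taken after loess and Aquantile. The arrays pair the bulls only by hybridisation. Across probes, the correlation of log2 ratios between arrays ran from r = 0.40 to 0.60, where probes are not independent replicates.

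Symbols came from a RefSeq table of ARS-UCD2.0, found for 8297 probes. The array was designed on another build, so no coordinates are given. The members and all lists were chosen with earlier results of these data known. The named genes are the members, up to 4 genes past the test per list (or the 2 with the smallest p where none passed), and the 5 genes most like PDK4, UCP3 and CPT1B, of which 1 is not reported here. Other genes, among them the immediate-early genes, cell markers, PDHA1, PDK3, MPC1, MPC2, TRIM63 and SIRT1, were named after their values were seen. Sequences of the probes, proteins and promoters were not used here, so the comparison of paralogs and the motif search were not run. The alternatives covered the background correction, normalization, filter, model, pairing, probe choice and each array left out.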

Additional observations from a re-analysis of the deposited data

How the results depend on the processing

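Of the results that answer a comparison, 112 values under an alternative stayed close to the main value and 29 moved, and among single genes and lists 381 stayed, 52 moved, 47 lost and 3 gained the call, and 1 reversed. The number of probes past the test was 868 and became 1308 with an intensity trend and robust prior, 3800 with median centring (92.8% higher in LIM against 54.1%), 5484 with centring on the kept probes (47.3% higher), 1336 with processed signals, 1347 with the series value table (60.2% higher), 1479 with the methods' t-test, and 0 to 51 when an array was left out. The further pathway genes past the test were 7 and became 21 with median centring, 25 with centring on the kept probes, 11 with offset 0, 11 with the series value table, 13 with the methods' t-test and 0 to 2 without an array. The members past the test were 3, and 0 to 1 without an array. UCP3 moved to 2.34 with median centring and 2.09 where the kept probes alone were centred, CPT1B to 0.73 and 0.47, CPT2 to 0.69 and 0.44, ACADM to 0.61 and 0.35, ACADVL to 0.56 and 0.30, HADHA to 0.95 and 0.69, PDK2 to 0.43 and 0.18, and the enzymes' median to 0.65 and 0.39. DECR1 reversed to 0.0069 with median centring and was -0.25 with centring on the kept probes. Over the other alternatives 2 to 4 of the members passed, and not always the same ones. PDK4 did not pass without the filter on dim probes or with scale normalization. DECR1 did not pass with background subtraction or either centring. With either centring CPT1B and HADHA passed beside PDK4 and UCP3. The causes were not tested.

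The array joins its bulls as a pair. With the channels as separate samples, without the array as a block, 1091 probes passed, the same 3 members among them. A block for slide or scan was not run, as there was 1 of each. With a single dye orientation, 4 arrays and no dye swap, a gene's dye bias and its breed difference cannot be told apart.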
